A study of Mus musculus with 13 samples.

Results

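The extracellular matrix and the enzymes that remodel it were followed as a set of 38 genes in liver tumours of mir-122 knockout mice. The set holds 13 collagens, 17 other matrix genes, which include the crosslinking enzymes Lox, Loxl1 and Loxl2, and 8 matrix metalloproteinases and tissue inhibitors. A gene was read from the probe set with the highest mean over all 13 arrays, among probe sets annotated to that gene alone. Of the 38 genes, 36 were measured in this way, out of 18193 genes with such a probe set. Fbn1 (fibrillin) and Loxl2 had no probe set of their own in the annotation used and were left out, so the measured set was 13 collagens, 15 other matrix genes and 8 proteases and inhibitors.

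The arrays held RNA from frozen tissue of mice on a B6/129 background: 3 tumours at 11 months and 5 tumours at 14 months of age, all from mice with the mir-122 knockout genotype, against 2 livers at 11 months and 3 livers at 14 months from wild type mice. Mir-122 is a microRNA abundant in hepatocytes. No treatment is named, and how or in which cells the gene was deleted is not given in the sources used here. Knockout liver outside a tumour is not among these arrays, so the genotype and the tumour cannot be told apart. The labels also do not tie each tumour to a mouse of its own, and p-values here measure the spread between these samples. The tumours are called 11-month tumours 1 to 3 and 14-month tumours 1 to 5, and the controls are numbered likewise. The numbers were given in accession order and pair nothing.

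In a healthy liver, fibrillar collagens I, III and V surround portal tracts and vessels, while the sinusoids are lined by a loose matrix with little basement membrane. Basement membranes are sheets of collagen IV and laminin joined by nidogen. In liver injury, stellate cells and portal fibroblasts turn into myofibroblasts and lay down fibrillar collagen, which lysyl oxidases crosslink. Matrix metalloproteinases (Mmp genes) cut these proteins, and tissue inhibitors of metalloproteinases (Timp genes) block them.

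Hepatocyte genes were high on every array. Albumin (Alb) had a log2 level of 14.64 ± 0.11 in the tumours and 14.65 ± 0.01 in the controls (SD, n = 8 and 5). The mean of 6 hepatocyte markers was 13.27 to 13.64 in the tumours and 13.57 to 13.78 in the controls, and that of 5 cholangiocyte markers 4.47 to 5.75 and 4.59 to 5.04. The miR-122 transcript itself was not measured here, so it does not check the genotype labels. At an array level, 11-month tumours 1 and 2 and 14-month tumour 4 stood apart from the other 5 tumours on the first principal component, which held 49.5% of the variance. These 3 tumours lay at -17.8 to 1.54 on it, the other 5 tumours at 67.7 to 92.1 and the controls at -79.3 to -64.5. Among the controls, 11-month control 1 and 14-month control 3 were more alike (Pearson r = 0.995 over all probe sets) than any other pair (0.982 to 0.99). The labels give no animal number for 14-month control 3 or for 14-month tumours 1 and 2, so the labels do not show that these arrays come from separate mice. Whether the 2 alike controls share an animal was not tested, and p-values would be too small if they did. Counts below are also given without these 3 tumours and without these 2 controls, and then 1 group is left with a single array whose spread is assumed to be that of the others, as it also is where an 11-month control is left out.

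The type I, III and IV collagens, periostin, nidogen and the collagenases Mmp13 and Mmp14 were among the matrix genes with more messenger RNA in tumours than in control livers. With both ages weighted equally, 17 of the 36 genes were higher in tumours, none was lower and 19 did not pass (limma with Benjamini-Hochberg adjustment over all genes, threshold 0.05). That is 47.2% of the measured matrix genes, beside 20.1% of all 18193 genes called in either direction, with 10.3% of all genes higher and 9.81% lower. Their median log2 fold change was 1.09, beside -0.05 over all genes, and 33 of the 36 values were positive. At an unadjusted p under 0.05, 26 matrix genes were higher among 27 that differed, beside 36.4% of all genes. For 12 of the 36 genes every tumour lay above every control, which holds for 6.22% of all genes. No matrix gene had every tumour below every control, which holds for 5.07% of all genes.

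By class, 7 of 13 collagens, 5 of 15 other matrix genes and 5 of 8 proteases and inhibitors were higher in tumours. The collagens were Col1a1, Col1a2, Col3a1, Col4a1, Col4a2, Col5a2 and Col6a3. The other matrix genes were Postn, Sparc, Nid1, Lamb1 and Lox, and the remaining 5 were Mmp12, Mmp13, Mmp14, Timp1 and Timp3. The median log2 fold change was 1.76 for the collagens, 1.01 for the other matrix genes and 1.33 for the proteases and inhibitors. Fits with fewer arrays are given by their counts of genes past the threshold in either direction. Over the fits that left out 1 array these counts were 3 to 9, 2 to 10 and 3 to 8, lowest without 11-month control 2 and highest without 11-month tumour 1 in each class. For the whole set the count was 8 without 11-month control 2, 10 without 11-month control 1 and 27, 1 of them lower, without 11-month tumour 1, while the count over all genes was 1814, 1963 and 3705 in these fits against 3657 with all arrays. Leaving out both alike controls gave 6 matrix genes of 1368 genes in all, and leaving out the 3 tumours that stood apart gave 24 matrix genes, 23 higher and 1 lower, of 5467.

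Of the 17 genes, 7 stayed past the threshold whichever array was left out: Col4a1, Col4a2, Sparc, Nid1, Timp3, Mmp13 and Mmp14. All but Sparc and Mmp13 of these also stayed past it in all 23 alternatives in which single genes were followed. The threshold was passed in no setting by 6 genes: Col6a1, Col6a2, Col14a1, Eln, Dcn and Thbs1.

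**Figure D1:**
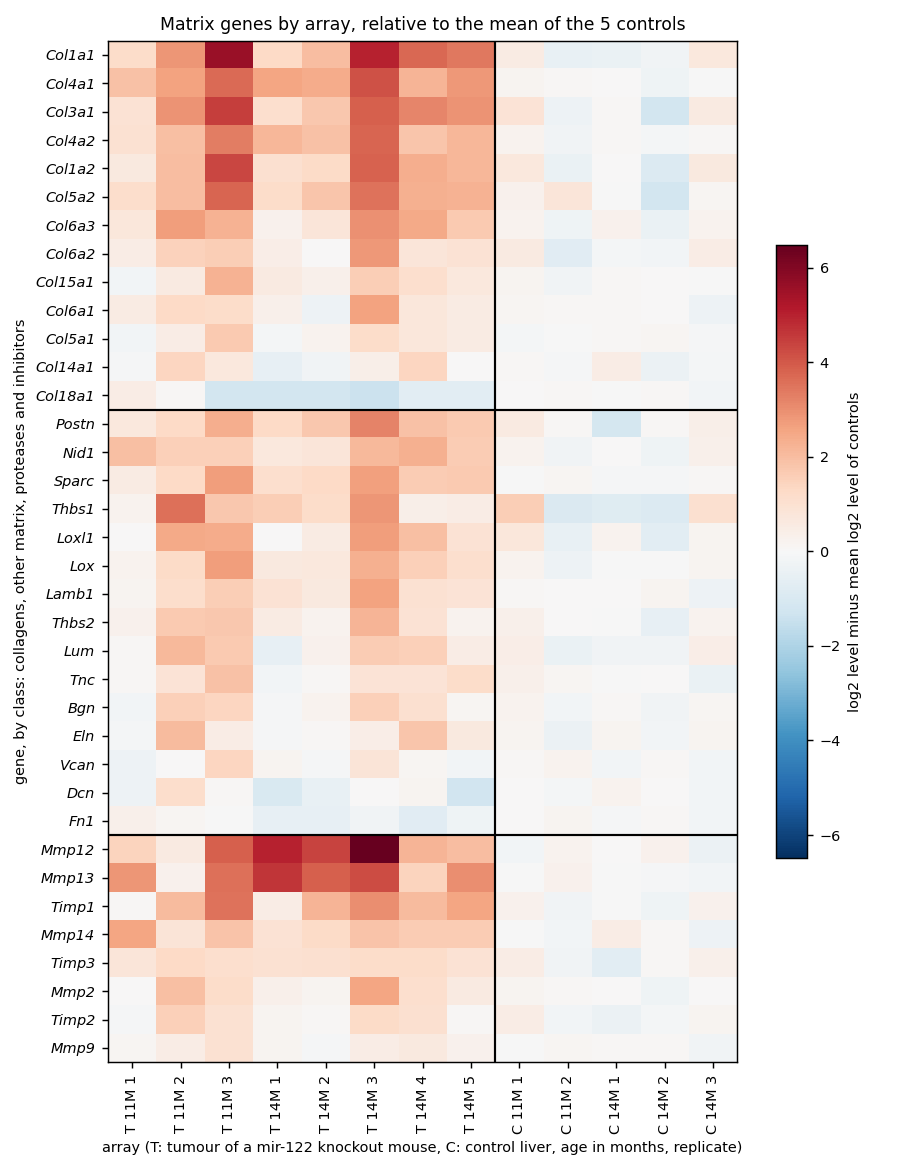
Heat map of the 36 measured matrix genes (rows, by class and by size of the change) on 8 tumour arrays and 5 control arrays (columns), with colour for the log2 level minus the mean log2 level of the controls. Col1a1, Col3a1, Col4a1, Col4a2, Mmp12 and Mmp13 are red across the tumour columns, with the deepest red in 11-month tumour 3 and 14-month tumours 1 and 3, while Col18a1 is blue in 6 of the 8 tumours.

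**Figure D2:**
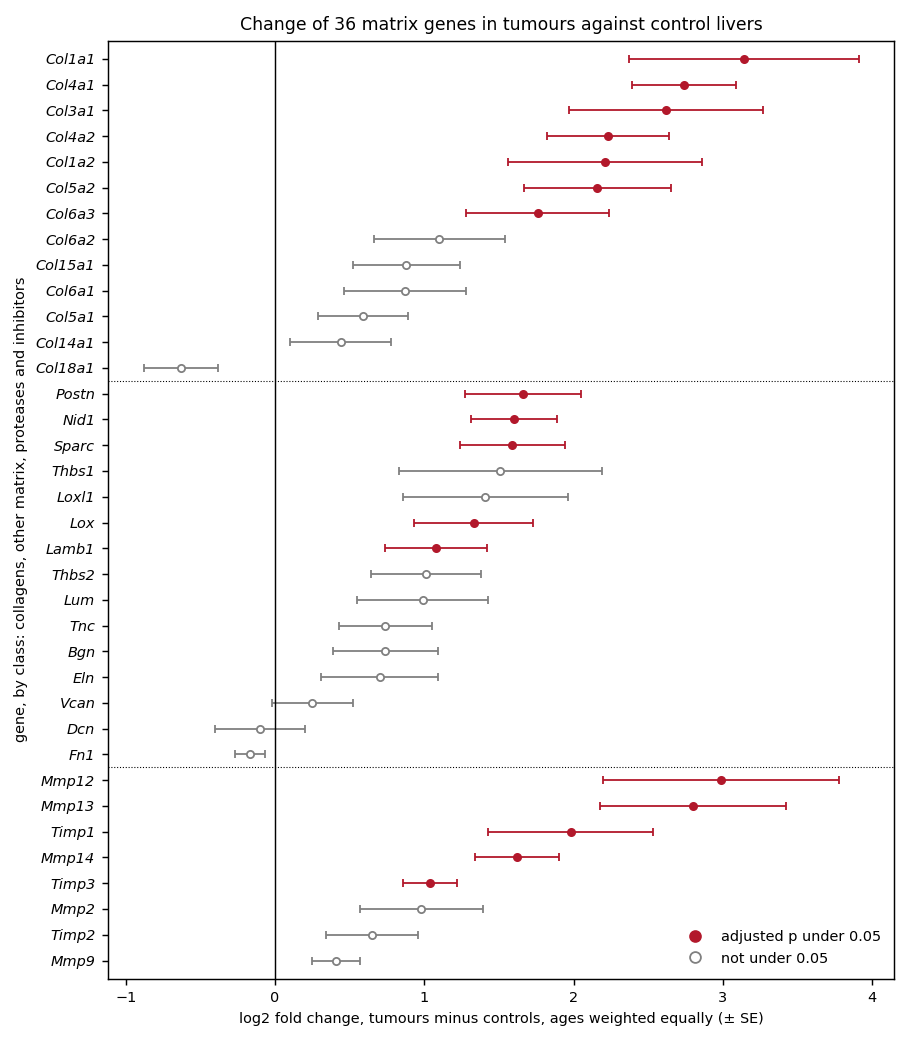
Log2 fold change of the 36 matrix genes, tumours minus controls with the ages weighted equally (x axis; bars are ± SE), by class. Filled points mark the 17 genes with an adjusted p under 0.05, and 33 of 36 points lie above 0.

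Of the 5 fibrillar collagen chains, 4 were higher in tumours, by log2 fold changes of 2.16 to 3.14, and their tumours varied widely (SD 0.96 to 1.63). Col1a1, on chromosome 11, encodes the main chain of type I collagen, the chief fibre of scar tissue. Its log2 level was 6.59, 8.26 and 10.99 in the 11-month tumours and 6.72, 7.40, 10.42, 9.11 and 8.85 in the 14-month tumours, against 5.94 and 4.92 in the 11-month controls and 4.96, 5.16 and 6.07 in the 14-month controls. Every tumour lay above every control, but the tumours themselves spread over more than the distance between the group means, with 11-month tumour 3 and 14-month tumour 3 at the top. The log2 fold change (tumours minus controls) was 3.14 ± 0.77 (adjusted p = 0.0167), an 8.82-fold difference, where changes carry their SE and mean levels their SD here and below. Without 11-month control 2 it was 2.89 with an adjusted p of 0.0756.

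Col1a2, the partner chain of type I collagen on chromosome 6, showed 7.88, 9.23 and 11.56 in the 11-month tumours and 8.24, 8.45, 11.07, 9.60 and 9.37 in the 14-month tumours. The 11-month controls had 7.91 and 6.78 and the 14-month controls 7.23, 6.35 and 7.86. All tumours but 11-month tumour 1 exceeded all controls, and the same 2 tumours were highest as for Col1a1. Tumours exceeded controls by a log2 difference of 2.21 ± 0.65 (adjusted p = 0.0345). This call was lost in 6 of the 13 fits that left out 1 array, namely those without 11-month control 1 or 2, 14-month control 1 or 2, 11-month tumour 3 or 14-month tumour 5, with adjusted p of 0.0521 to 0.133.

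The Col1a2 promoter is shown because it was the type I collagen promoter present in the RefSeq table (GRCm38.p6). The 150 bases before the annotated start, chr6:4505468-4505617 on the + strand, read 5′ to 3′ with a CCAAT letter run in capitals, whose first base is at -109 from the start:
Col1a2: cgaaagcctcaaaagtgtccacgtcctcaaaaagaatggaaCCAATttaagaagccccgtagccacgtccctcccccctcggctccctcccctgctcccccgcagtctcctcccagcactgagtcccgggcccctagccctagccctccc
CCAAT was found on either strand within 250 bases before the start in 33.8% of 32851 promoters and in 11 of the 30 promoters listed for 25 of the matrix genes, a share close to that of all promoters. It is a match of letters and says nothing of what binds there.

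Col3a1, the type III collagen that forms reticular fibres in liver, lay at 9.14, 11.10 and 12.66 in the 11-month tumours and at 9.26, 9.95, 12.09, 11.34 and 11.12 in the 14-month tumours. Control livers had 9.06 and 7.86 at 11 months and 8.26, 7.02 and 8.76 at 14 months. The groups did not overlap, although 11-month tumour 1 and 14-month tumour 1 lay only just above 11-month control 1. On the log2 scale the difference was 2.62 ± 0.65 (adjusted p = 0.0168), and without 11-month control 2 it was 2.32 (adjusted p = 0.0812).

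Type V collagen sits in the core of type I fibrils. Its Col5a2 chain, which lies on chromosome 1 like Col3a1, had 7.50, 8.34 and 10.12 in the 11-month tumours and 7.57, 8.14, 9.89, 8.65 and 8.60 in the 14-month tumours, against 6.66 and 7.14 and then 6.36, 5.15 and 6.50 in the controls of these ages. All tumours exceeded all controls, with 14-month control 2 the lowest array. In log2 terms the tumours were higher by 2.16 ± 0.49 (adjusted p = 0.011), and it was 2.04 without 11-month control 1 (adjusted p = 0.0536). Col5a1, the other chain, averaged 6.89 ± 0.64 in tumours and 6.33 ± 0.11 in controls and did not pass (0.59 ± 0.30, adjusted p = 0.175). Its other probe sets gave log2 fold changes of 1.18 and 0.319, both also short of the threshold. Without the 3 tumours that stood apart, the log2 fold change of Col5a1 was 1.08.

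Both collagen IV chains, nidogen and the laminin chain Lamb1 were higher in tumours, with an SD of 0.58 to 0.89 among them. Col4a1 and Col4a2 encode the 2 chains of the ubiquitous form of collagen IV. They run in opposite directions on chromosome 8 from annotated starts that are 21 bases apart. Col4a1 had 9.50, 10.21 and 11.28 in the 11-month tumours and 10.18, 10.03, 11.73, 9.79 and 10.40 in the 14-month tumours, against 7.81 and 7.69 in the 11-month and 7.63, 7.35 and 7.58 in the 14-month controls. The lowest tumour lay well above the highest control, and the controls were tightly grouped. With a log2 fold change of 2.74 ± 0.35 (adjusted p = 0.000736, a 6.69-fold difference), Col4a1 had the smallest p of the 36 genes.

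Col4a2 gave 8.35, 9.28 and 10.67 in the 11-month tumours and 9.47, 9.24, 11.12, 9.14 and 9.48 in the 14-month tumours, and 7.56 and 7.11 and then 7.39, 7.22 and 7.41 in the matching controls. The arrays kept the pattern of Col4a1, with 14-month tumour 3 and 11-month tumour 3 highest and 11-month tumour 1 the lowest tumour. This made a log2 fold change of 2.23 ± 0.41 (adjusted p = 0.00434).

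Nid1 encodes nidogen, which links laminin to collagen IV. Its level was 9.33, 8.94 and 8.91 in the 11-month tumours and 8.09, 8.17, 9.49, 9.71 and 9.02 in the 14-month tumours, against 7.59 and 7.13 and then 7.39, 7.10 and 7.70 in the controls. All tumours exceeded all controls, but here 14-month tumours 4 and 3 and 11-month tumour 1 were the highest, an order unlike that of the collagens. Nid1 was higher by 1.60 ± 0.29 (log2, adjusted p = 0.0037).

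Lamb1, a laminin chain, averaged 7.30 ± 0.72 in tumours and 6.18 ± 0.21 in controls, with 7 of 8 tumours above all controls. Its log2 fold change of 1.08 ± 0.34 (adjusted p = 0.0446) lay close to the threshold. The call was lost in 9 of the 13 fits without 1 array (adjusted p of 0.054 to 0.121), and it held only without 11-month tumour 1 or without 14-month tumour 2, 3 or 4. It was also lost after repeated quantile normalisation (1.01, adjusted p = 0.0637).

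Collagens XV and XVIII lie at the outer face of basement membranes, and the end piece of collagen XVIII is known as endostatin, an inhibitor of vessel growth. In liver, collagen XVIII is made largely by hepatocytes. Col18a1 was the collagen with a negative value: 12, 11.60 and 10.30 in the 11-month tumours and 10.32, 10.32, 10.10, 10.82 and 10.80 in the 14-month tumours, against 11.54 and 11.57 and then 11.49, 11.59 and 11.33 in the controls. Of the tumours 6 lay below all controls, while 11-month tumours 1 and 2 lay above them. The log2 fold change was -0.63 ± 0.25 (adjusted p = 0.0997). It was -0.80 without 11-month tumour 1 (adjusted p = 0.0323) and -1.17 without the 3 tumours that stood apart (adjusted p = 0.000511), and past the threshold in both fits. Col15a1 averaged 7.06 ± 0.77 in tumours and 6.18 ± 0.15 in controls (0.88 ± 0.36, adjusted p = 0.103), and passed without 11-month tumour 1 (1.15, adjusted p = 0.0253) and without the 3 tumours (1.53, adjusted p = 0.00185).

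Type VI collagen forms beaded filaments around cells from 3 chains. Only the Col6a3 chain passed, with 7.17, 9.16 and 8.71 in the 11-month tumours and 6.72, 7.26, 9.40, 8.94 and 8.17 in the 14-month tumours, against 6.69 and 6.20 and then 6.72, 6.01 and 6.68 in the controls. All tumours but 14-month tumour 1 exceeded all controls. Col6a3 was higher by 1.76 ± 0.48 (log2, adjusted p = 0.0261), and the call was lost in 4 of 13 fits, those without 11-month control 1 or 2, 14-month control 2 or 11-month tumour 3 (adjusted p of 0.0562 to 0.0995). Col6a1 averaged 7.25 ± 0.87 in tumours and 6.40 ± 0.19 in controls (0.87 ± 0.41, adjusted p = 0.148). Col6a2 averaged 8.15 ± 0.87 in tumours and 7.09 ± 0.55 in controls (1.10 ± 0.44, adjusted p = 0.0993). Both of these chains were highest in 14-month tumour 3. Whether the 3 chains differed in their change was not tested. Col14a1, a collagen bound to the surface of fibrils, averaged 8.93 ± 0.73 in tumours and 8.55 ± 0.32 in controls (0.44 ± 0.34, adjusted p = 0.367).

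**Figure D3:**
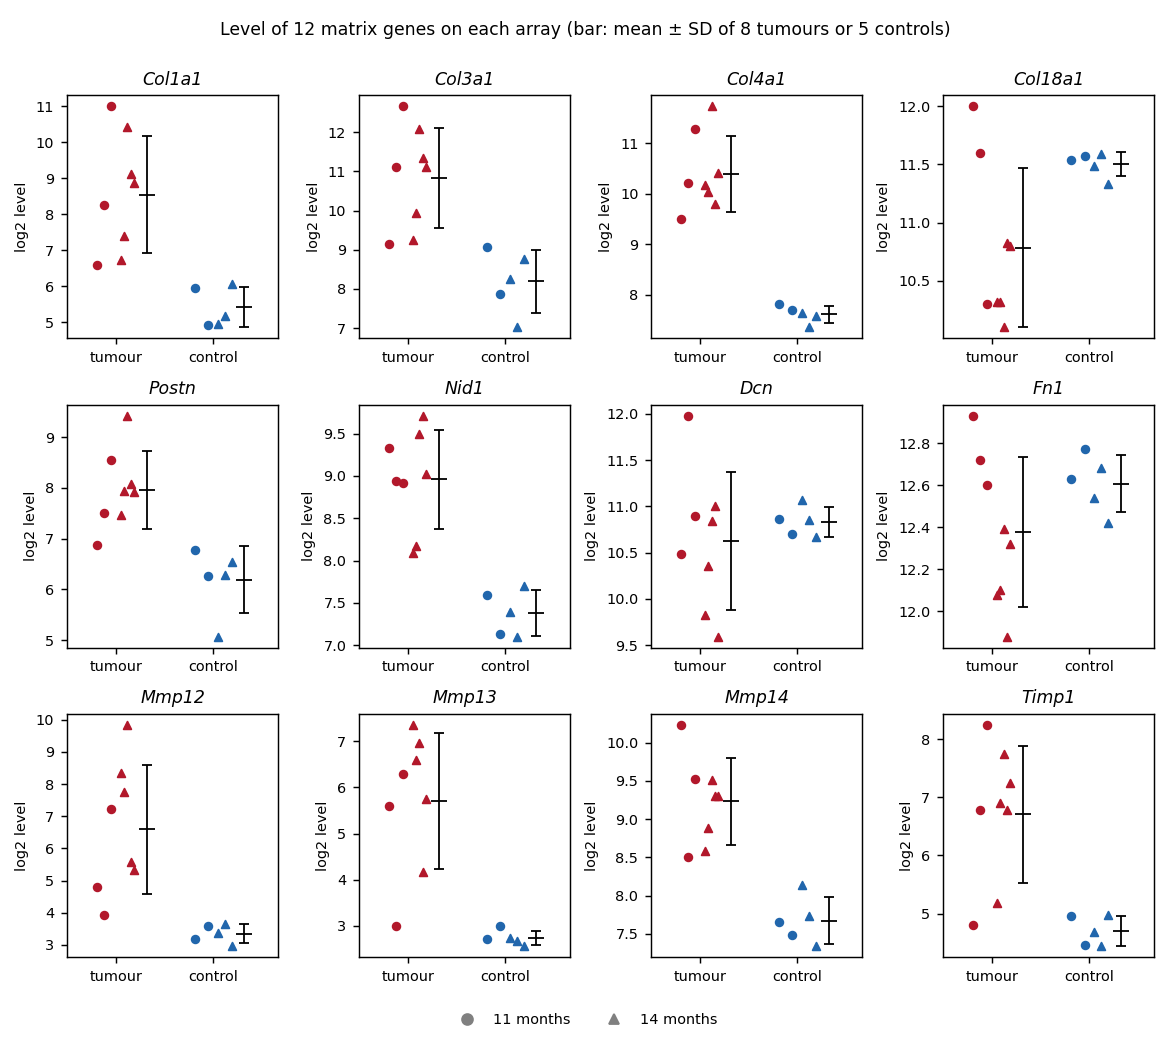
Log2 level of 12 matrix genes on each array (y axis), tumours left and controls right, with circles for 11 months, triangles for 14 months and bars for the mean ± SD of 8 tumours or 5 controls. Tumours and controls do not overlap for Col1a1, Col3a1, Col4a1, Postn, Nid1, Mmp12, Mmp13 and Mmp14, and they overlap for Col18a1, Dcn, Fn1 and Timp1.

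Among the matricellular and adhesive proteins, Postn and Sparc were higher in tumours. Postn encodes periostin, a protein secreted by activated fibroblasts that binds collagen. It had 6.88, 7.50 and 8.55 in the 11-month tumours and 7.47, 7.93, 9.42, 8.07 and 7.91 in the 14-month tumours, against 6.77 and 6.27 and then 5.07, 6.29 and 6.55 in the controls. The groups did not overlap, with 11-month tumour 1 close to 11-month control 1. Postn was higher by 1.66 ± 0.39 (log2, adjusted p = 0.014), and 1.53 without 11-month control 2 (adjusted p = 0.067).

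Sparc, a collagen-binding glycoprotein of remodelling tissue, showed 9.13, 9.89 and 11.33 in the 11-month tumours and 9.72, 9.92, 11.27, 10.27 and 10.32 in the 14-month tumours. The controls had 8.59 and 8.74 and then 8.52, 8.54 and 8.67, a narrow range below every tumour. Sparc was higher by 1.59 ± 0.35 (log2, adjusted p = 0.00983). A second probe set of Sparc gave 1.48, while the third gave -0.213. Sparc was the exception among the 19 genes with 2 or more probe sets above the median level, of which 18 had the same direction in all of these probe sets.

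Fibronectin (Fn1), which hepatocytes secrete into plasma and fibroblasts deposit in the matrix, gave a different value by each of its probe sets. With the brighter one the tumours had 12.93, 12.72 and 12.60 at 11 months and 12.08, 12.10, 12.39, 11.88 and 12.32 at 14 months, against 12.63 and 12.77 and then 12.54, 12.68 and 12.42 in the controls. All 5 of the 14-month tumours lay below all controls, and the 11-month tumours overlapped with them. The log2 fold change was -0.17 ± 0.10 (adjusted p = 0.265). The second probe set averaged 7.05 in tumours and 8.25 in controls, with a log2 fold change of -1.13 (adjusted p = 0.00747 over all probe sets). The mean of both probe sets gave -0.65 (adjusted p = 0.00593), which is a lower call that the brighter probe set alone does not give.

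The small leucine-rich proteoglycans, which bind collagen fibrils, did not pass the test. Decorin (Dcn) had 10.48, 11.98 and 10.90 in the 11-month tumours and 9.83, 10.35, 10.84, 11.00 and 9.59 in the 14-month tumours, against 10.86 and 10.70 and then 11.07, 10.85 and 10.67 in the controls. Tumours lay on both sides of the controls, 1 above and 4 below all of them, and the log2 fold change was -0.10 ± 0.30 (adjusted p = 0.824). Lumican (Lum) averaged 9.46 ± 0.95 in tumours and 8.55 ± 0.40 in controls (0.99 ± 0.44, adjusted p = 0.127). Biglycan (Bgn) averaged 10.59 ± 0.75 in tumours and 9.89 ± 0.19 in controls (0.74 ± 0.35, adjusted p = 0.145). Both passed without 11-month tumour 1, with 1.29 (adjusted p = 0.0417) for Lum and 1.02 (adjusted p = 0.0307) for Bgn.

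The thrombospondins, elastin, tenascin C and versican did not pass with all arrays. Thrombospondin 1 (Thbs1), a matricellular glycoprotein that can activate latent TGF-beta, had 5.37, 8.69 and 6.89 in the 11-month tumours and 6.71, 6.31, 7.98, 5.51 and 5.61 in the 14-month tumours. In the controls it had 6.72 and 4.19 and then 4.35, 4.24 and 6.19, so the 2 controls that resembled each other were far above the remaining 3. Its log2 fold change was 1.51 ± 0.68 (adjusted p = 0.131). Thbs2 averaged 5.50 ± 0.79 in tumours and 4.52 ± 0.34 in controls (1.01 ± 0.37, adjusted p = 0.0736). Elastin (Eln), the protein of elastic fibres, averaged 6.23 ± 0.83 in tumours and 5.57 ± 0.25 in controls (0.70 ± 0.39, adjusted p = 0.215). The adhesion-modulating tenascin C (Tnc) gave 0.74 ± 0.31 (adjusted p = 0.116) and the large proteoglycan versican (Vcan) 0.25 ± 0.27 (adjusted p = 0.523). Tnc and Vcan lay under the typical probe set, at 4.64 ± 0.68 and 3.57 ± 0.58 in tumours and 3.91 ± 0.28 and 3.32 ± 0.17 in controls. Without 11-month tumour 1, Thbs2 (1.25, adjusted p = 0.0273) and Tnc (0.95, adjusted p = 0.0376) passed. The log2 fold change of Vcan was 0.77 without the 3 tumours that stood apart.

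Lysyl oxidases make the crosslinks of collagen and elastin. Lox had 4.63, 5.69 and 7.14 in the 11-month tumours and 5.04, 5.12, 6.71, 5.95 and 5.50 in the 14-month tumours, against 4.64 and 4.09 and then 4.41, 4.39 and 4.60 in the controls. All tumours but 11-month tumour 1 exceeded all controls. Lox was higher by 1.33 ± 0.40 (log2, adjusted p = 0.0393). The call was lost in 8 of the 13 fits without 1 array (adjusted p of 0.0522 to 0.137), namely without any 1 of the 5 controls, 11-month tumour 2 or 3, or 14-month tumour 5, and also with the mean of its probe sets (0.89, adjusted p = 0.0873). Loxl1 averaged 6.44 ± 1.14 in tumours and 5.06 ± 0.58 in controls (1.41 ± 0.55, adjusted p = 0.0904), and passed without 11-month tumour 1 (1.82, adjusted p = 0.0239).

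Of the 5 metalloproteinases, Mmp12, Mmp13 and Mmp14 were higher in tumours. Mmp12, the macrophage elastase, had 4.81, 3.94 and 7.22 in the 11-month tumours and 8.34, 7.75, 9.83, 5.57 and 5.33 in the 14-month tumours, against 3.17 and 3.60 and then 3.37, 3.64 and 2.96 in the controls. Every tumour exceeded every control, and 14-month tumours 1, 2 and 3 together with 11-month tumour 3 formed the upper part. The log2 fold change was 2.99 ± 0.79 (adjusted p = 0.0227, a 7.95-fold difference). The call was lost without 11-month control 1 (adjusted p = 0.0841) or 11-month control 2 (adjusted p = 0.0686).

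Mmp13, the main collagenase of rodents for fibrillar collagen, had 5.59, 3.0 and 6.29 in the 11-month tumours and 7.35, 6.59, 6.97, 4.16 and 5.74 in the 14-month tumours. The controls had 2.72 and 2.99 and then 2.73, 2.68 and 2.56. The groups did not overlap, but 11-month tumour 2 lay just above the highest control. Mmp13 was higher by 2.80 ± 0.62 (log2, adjusted p = 0.00985, a 6.99-fold difference). Control levels of Mmp12 and Mmp13 were near the bottom of the scale, where RMA values compress differences, and detection calls were not used here.

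Mmp14, a membrane-bound collagenase that activates the precursors of other metalloproteinases, had 10.23, 8.50 and 9.53 in the 11-month tumours and 8.59, 8.89, 9.51, 9.31 and 9.31 in the 14-month tumours, against 7.66 and 7.48 and then 8.14, 7.74 and 7.34 in the controls. All tumours exceeded all controls, and 11-month tumour 1, low for most collagens, was the highest array. Mmp14 was higher by 1.62 ± 0.28 (log2, adjusted p = 0.00294).

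The promoters of these 3 proteases are shown because each of the genes passed the test and Mmp12 and Mmp13 are neighbours on chromosome 9, with 74860 bases between the starts used. Each line gives the 150 bases before an annotated start from RefSeq (GRCm38.p6, + strand), 5′ to 3′: chr9:7272364-7272513 for Mmp13, chr9:7347224-7347373 for Mmp12 and chr14:54431448-54431597 for Mmp14. Capitals mark TGANTCA, the letters bound by AP-1 factors, TATAAA, and CCAAT or its complement ATTGG:
Mmp13: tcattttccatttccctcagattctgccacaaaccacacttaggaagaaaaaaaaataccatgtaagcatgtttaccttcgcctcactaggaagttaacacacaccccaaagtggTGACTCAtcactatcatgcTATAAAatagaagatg
Mmp12: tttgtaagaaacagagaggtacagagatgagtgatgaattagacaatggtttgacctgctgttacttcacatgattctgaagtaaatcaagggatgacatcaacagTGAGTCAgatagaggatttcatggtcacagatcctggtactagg
Mmp14: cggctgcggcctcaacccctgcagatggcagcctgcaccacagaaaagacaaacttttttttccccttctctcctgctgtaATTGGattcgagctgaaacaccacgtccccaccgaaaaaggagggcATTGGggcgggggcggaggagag

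Counted from the annotated start, whose last base before it is -1, the Mmp13 promoter has TGACTCA with its first base at -35 and TATAAA at -16. In the Mmp12 promoter TGAGTCA has its first base at -44. Mmp12 has 2 annotated starts, and the one further along the chromosome is shown. The 250 bases before the other start do not hold these letters. ATTGG lies at -69 and -23 in the promoter of Mmp14. TGANTCA was found on either strand in 6.75% of 32851 promoters of 250 bases, and in 3 of the 30 promoters of the matrix genes, those of Col6a1, Mmp12 (at 1 of its 2 starts) and Mmp13. TATAAA was found in 12.4% of all promoters and in 6 of these 30. The 3 motifs do not share letters in the lines shown, and a match does not tell whether a factor binds.

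The gelatinases, which cut denatured collagen and collagen IV, did not pass. Mmp2 had 5.63, 7.55 and 6.81 in the 11-month tumours and 5.95, 5.79, 8.14, 6.67 and 6.19 in the 14-month tumours, against 5.78 and 5.69 and then 5.61, 5.32 and 5.61 in the controls (0.98 ± 0.41, adjusted p = 0.112). All but 11-month tumour 1 exceeded every control, though by little in 14-month tumours 1 and 2. Mmp9 averaged 5.26 ± 0.33 in tumours and 4.88 ± 0.14 in controls (0.41 ± 0.16, adjusted p = 0.089). Both passed without 11-month tumour 1, with 1.24 (adjusted p = 0.0455) for Mmp2 and 0.51 (adjusted p = 0.036) for Mmp9.

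Of the inhibitors, Timp1 and Timp3 were higher in tumours. Timp1, the inducible inhibitor of injured liver, had 4.80, 6.78 and 8.24 in the 11-month tumours and 5.19, 6.90, 7.74, 6.78 and 7.24 in the 14-month tumours, against 4.96 and 4.46 and then 4.68, 4.44 and 4.98 in the controls. All tumours but 11-month tumour 1 exceeded all controls. Timp1 was higher by 1.98 ± 0.55 (log2, adjusted p = 0.0272). The call was lost without 11-month control 1 or 2 or 14-month control 1 or 2 (adjusted p of 0.0556 to 0.101).

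Timp3, the inhibitor that stays bound to the matrix, had 8.33, 8.81 and 8.60 in the 11-month tumours and 8.50, 8.57, 8.73, 8.74 and 8.49 in the 14-month tumours, against 8.02 and 7.31 and then 6.86, 7.62 and 7.87 in the controls. The tumours were close together above all controls, and it was 1 of the 2 genes of the 36 whose controls spread more than its tumours (SD 0.46 in controls, 0.16 in tumours). Timp3 was higher by 1.04 ± 0.18 (log2, adjusted p = 0.00338), and its 4 probe sets gave 0.65 to 1.08. Timp2, which also takes part in the activation of the Mmp2 precursor, averaged 8.54 ± 0.64 in tumours and 7.90 ± 0.33 in controls (0.65 ± 0.31, adjusted p = 0.157), and passed without 11-month tumour 1 (0.88, adjusted p = 0.0411).

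At 14 months alone, 11 of the 36 genes were higher in tumours and none was lower, or 30.6%, beside 15.3% of all genes called and 8.37% called higher and 6.88% lower. They were Col3a1, Col4a1, Col4a2, Col5a2, Postn, Sparc, Nid1, Timp3, Mmp12, Mmp13 and Mmp14. For Col4a1 the change at this age was 2.90 on the log2 scale (adjusted p = 0.00307). Mmp12 had 4.04 (adjusted p = 0.0221), and Col1a1 missed the threshold with 3.10 (adjusted p = 0.0516). For fits with fewer arrays the count over all genes is not given at this age. A changed count is therefore not a result about the matrix genes. The count of matrix genes was 3 without 14-month control 1, 3 without 14-month control 2, 6 without 14-month control 3 and 16 without 11-month tumour 3. It was 3 without both alike controls and 17 without the 3 tumours that stood apart.

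At 11 months, where 3 tumours met 2 controls, Col4a1 alone of the 36 genes passed (2.58, adjusted p = 0.0428), or 2.78% of them, beside 1.92% of all genes called and 1.31% called higher and 0.61% lower. The sizes of the changes resembled those at 14 months, with a median over the 36 genes of 1.19 at 11 months and 1.18 at 14 months, beside -0.04 and -0.06 over all genes. Col1a1, for example, had 3.18 at 11 months (adjusted p = 0.21). Leaving out 1 array gave 0 to 2 genes: 2 without 11-month tumour 1 or without 11-month tumour 2, 1 without 14-month tumour 3 or 4, and 0 without any other array. Counts over all genes are not given for these fits, so a changed count is not a result about the matrix genes. Without the 3 tumours that stood apart, 11-month tumour 3 is the one tumour of its age, and the count of that fit is not read as a result.

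The test of the difference between the ages called 0 of the 36 genes and 0% of all 18193 genes (limma). At an unadjusted p under 0.05 it had 0 matrix genes, beside 2.99% of all genes. The largest difference was that of Mmp12, at 2.10 ± 1.58 (adjusted p = 0.999). Between 14-month and 11-month tumours directly, none of the 36 passed, beside 0.0055% of all genes, and 2 had an unadjusted p under 0.05, beside 6.26% of all genes. They were Fn1 (-0.60 ± 0.13, adjusted p = 0.649) and Col18a1 (-0.83 ± 0.32, adjusted p = 0.776), both lower at 14 months. These counts of 0 were also 0 in each alternative tried. With 2 to 5 arrays a group, a p that misses the threshold does not show that the ages were alike.

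Tumours differed among themselves more than control livers did. The median SD over the 36 genes was 0.78 in tumours and 0.27 in controls, beside 0.25 and 0.16 over all genes. The tumour SD was the larger for 34 of the 36 genes (94.4%), beside 73.3% of all genes. The highest tumour was 11-month tumour 3 for 12 genes, 14-month tumour 3 for 11 and 11-month tumour 2 for 8. The lowest was 11-month tumour 1 for 21 genes, among them 8 of the 13 collagens. Even so, 11-month tumour 1 lay above all controls for 17 genes, against 31 to 34 genes in 11-month tumours 2 and 3 and 14-month tumours 3 and 4. For such counts by single array the share over all genes is not given, so they are not a result about the matrix genes. Among the controls, 11-month control 1 was the highest for 17 of the 36 genes.

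The mean level of the 13 collagens ran from 7.94 to 9.92 in tumours and from 6.93 to 7.58 in controls. For the 8 proteases and inhibitors the ranges were 6.52 to 8.18 and 5.49 to 5.69, so that no tumour overlapped with a control in either list. The 15 other matrix genes did overlap, at 7.05 to 8.53 in tumours and 6.64 to 7.14 in controls, since 11-month tumour 1 and 14-month tumour 1 fell below 11-month control 1. The collagens were lowest in 11-month tumour 1 (7.94) and 14-month tumours 1 (7.98) and 2 (8.10). In the proteases these 14-month tumours, at 7.13 and 7.16, were exceeded by 11-month tumour 3 (7.68) and 14-month tumour 3 (8.18) alone.

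**Figure D4:**
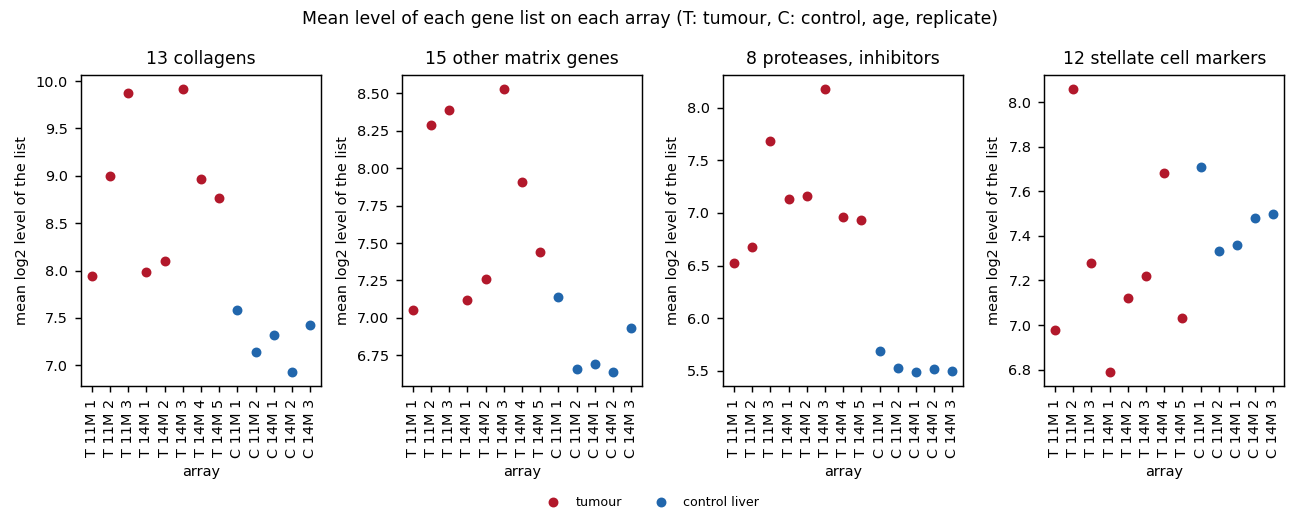
Mean log2 level (y axis) of the 13 collagens, 15 other matrix genes, 8 proteases and inhibitors and 12 stellate cell markers on each array (x axis, tumours left and controls right). Collagens reach 9.92 and proteases 8.18 in 14-month tumour 3, while the stellate cell markers of 6 of the 8 tumours lie below all 5 controls.

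Markers of cells that make or carry these transcripts moved in both directions, and in bulk tissue fewer cells of a type and less RNA per cell cannot be told apart. Of 12 stellate cell and myofibroblast markers, Pdgfrb was higher in tumours (1.33, adjusted p = 0.0142) and Lrat (-0.88, adjusted p = 0.0428) and Hand2 (-0.72, adjusted p = 0.0396) were lower, while the contractile marker Acta2 gave 0.73 (adjusted p = 0.318). The mean of the 12 ran from 6.79 to 8.06 in tumours and from 7.33 to 7.71 in controls, and was highest in 11-month tumour 2. All 3 calls were lost without 11-month control 2 or without both alike controls, and the count of calls was 1 to 6 over the other fits without 1 array.

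Of 8 macrophage markers, Cd68 (1.94, adjusted p = 0.00434), Lyz2 (1.64, adjusted p = 0.00281) and Itgam (1.62, adjusted p = 0.0221) were higher, and the Kupffer cell marker Clec4f had -2.16 (adjusted p = 0.0624). Their mean spanned 7.73 to 9.51 in tumours and 7.93 to 8.37 in controls. Of 5 neutrophil markers, S100a9 (2.72), S100a8 (2.66) and Csf3r (0.59) were higher, and Mpo and Elane, which mark granulocyte precursors, did not pass. Their mean was 6.16 to 7.60 in tumours and 5.09 to 6.06 in controls, which did not overlap. Of 8 endothelial markers, Lyve1 (2.24), Emcn (1.57) and Pecam1 (0.92) were higher and none was called lower. Only 4 of the 8 log2 fold changes were positive, with a median of 0.13. The mean level of the 8 was 6.80 to 7.69 in tumours and 7.06 to 7.29 in controls. These endothelial calls fell to 0 without 11-month control 2 and to 1 without any other single control, and the macrophage calls numbered 5 without 11-month tumour 2 or 14-month tumour 4. Of 7 markers of portal fibroblasts and mesothelium, Cd34, which endothelium also carries, was higher (2.40) and Msln (-0.56) and Upk3b (-0.45) were lower. That mean was 4.72 to 5.53 in tumours and 4.56 to 4.86 in controls. The part of these cells in the matrix changes was not tested.

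Genes that work with the 36 were counted in 5 further lists. Of 17 collagen processing and crosslinking genes, 7 were higher and 1 was lower in tumours (47.1%), led by the transglutaminase Tgm2 (2.73, adjusted p = 0.000305), the procollagen processing enhancer Pcolce (2.23, adjusted p = 0.0185), the lysyl hydroxylase Plod2 (1.92, adjusted p = 0.00744) and the prolyl hydroxylase subunit P4ha1 (1.53, adjusted p = 0.00179). The median over the 17 was 0.38. Pcolce had 6.68, 8.35 and 10.06 in the 11-month tumours and 10.11, 10.38, 10.14, 7.83 and 9.36 in the 14-month tumours, against 6.82 and 6.75 and then 6.60, 6.31 and 7.10 in the controls. All tumours but 11-month tumour 1 exceeded all controls, and the call was lost without 11-month control 1 (adjusted p = 0.0648) or 11-month control 2 (adjusted p = 0.0678).

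Of 24 matrix receptors, 7 were higher and 1 was lower (33.3%, median 0.32). The collagen receptor kinase Ddr1 had 8.98, 8.09 and 9.19 in the 11-month tumours and 8.38, 8.40, 8.99, 8.79 and 9.75 in the 14-month tumours, against 5.46 and 4.94 and then 4.78, 4.51 and 5.0 in the controls. Tumours and controls were far apart, and the log2 fold change was 3.83 (adjusted p = 1.9e-05). With the mean of its probe sets it was 1.14 (adjusted p = 0.000292). The laminin receptor chain Itga6 (2.97, adjusted p = 0.00459), the hyaluronan receptor Cd44 (2.04, adjusted p = 0.0021) and the integrin chain Itgav (1.61, adjusted p = 0.00389) were higher too. The related collagen receptor Ddr2 was lower (-0.46).

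Of 27 other proteases and inhibitors, 8 were higher and none was lower (29.6%, median 0.32), with tissue plasminogen activator Plat at 3.16 (adjusted p = 0.000897), the urokinase receptor Plaur at 1.27 (adjusted p = 0.0358), and Adamts1 (1.22, adjusted p = 0.0353) and Adamts4 (1.0, adjusted p = 0.0292), which cut proteoglycans. Of 19 TGF-beta and growth factor genes, 7 were higher and 1 was lower (42.1%, median 0.36), with Pdgfb at 1.78 (adjusted p = 0.0179), the receptors Tgfbr2 (1.58, adjusted p = 0.00133) and Tgfbr1 (1.17, adjusted p = 0.00226) and the ligand Tgfb2 (1.31, adjusted p = 0.00635). Of 49 further matrix proteins, 6 were higher and 3 were lower, or 18.4%, which is below the 20.1% of all genes, with a median of 0.15. The laminin chains in it went both ways. Lamc1 had 1.31 (adjusted p = 0.00288), Lamb3 1.06 (adjusted p = 0.0391) and Lama3 -1.29 (adjusted p = 0.00937). Ltbp2, a fibrillin-associated protein, had 1.10 (adjusted p = 0.0284). With the mean of the probe sets of a gene, Plat fell to 1.61, Itgav to 0.77 and Lama3 to -0.66, while P4ha1 rose to 1.73. All of these stayed past the threshold.

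Over these 5 lists the counts shrank to 3 to 5 genes each without 11-month control 2 and to 4 or 5 each without 11-month control 1. Without 11-month tumour 3 the receptors, the growth factor genes and the further proteases had 5 each, and without 14-month control 1 or 2 the further matrix proteins had 5 and the further proteases 4. Without both alike controls the counts were 2 to 5, and without the 3 tumours that stood apart they were 9 to 16. Without 11-month control 2 the adjusted p was 0.129 for Ltbp2, 0.139 for Lamb3, 0.116 for Plaur, 0.169 for Adamts1, 0.0977 for Adamts4 and 0.0736 for Pdgfb, which were each lost there, and in further fits too. By contrast, Tgm2, Plod2, P4ha1, Ddr1, Itga6, Cd44, Itgav, Plat, Tgfbr2, Tgfbr1, Tgfb2, Lamc1 and Lama3 stayed past the threshold in all of them, except that without both alike controls Plod2 (2.04, adjusted p = 0.0512) and Lama3 (-1.37, adjusted p = 0.0608) were lost.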

How the data were processed

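Messenger RNA was measured on 13 one-colour Affymetrix arrays. Per the submitters' processing notes, the authors made the deposited log2 values by RMA (robust multi-array analysis: background correction, quantile normalisation and a summary per probe set) in Partek. Its version is not given in the sources used here. RMA brings all arrays to 1 distribution, so values are relative to the array's total, and low values are compressed. Array medians lie at 5.127 to 5.218, and the number of arrays limits the precision.

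Of 45101 probe sets, 34945 name 1 gene, 932 several, 9160 none and 64 are array controls. A gene took its probe set with the highest mean, without a filter on level. All arrays entered 1 limma fit (limma 3.58.1, R 4.3.3, lmFit and eBayes) with a mean per group. The contrasts were tumours against controls with both ages weighted equally, at 11 months, at 14 months, the difference between ages, and 14-month against 11-month tumours. Benjamini-Hochberg adjustment ran over 18193 genes and calls needed an adjusted p under 0.05. The contrast of both ages is not the plain difference between the means over 8 tumours and 5 controls. The fit was tested on simulated data. The alternatives were averaged probe sets of each gene, 2 other scalings, a trend and robust spread, array weights, a filter on level, an adjusted p under 0.01, fewer arrays, and each array left out. Python 3.11.15 with matplotlib 3.10.9, numpy 2.4.6 and pandas 2.3.3 made the tables and plots.

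The members, lists, naming rule and alternatives were chosen with earlier results of these data known. All measured members are named, and of each further list the 4 largest changes past the threshold. Per-array values were to be given for the members with the largest changes, with unlike probe sets or with calls that 1 array decides. Other genes named, such as Ddr2 and the cell type markers, are examples picked after their values were seen. Promoters came from RefSeq (GRCm38.p6), whose build is not tied to the arrays.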

Additional observations from a re-analysis of the deposited data

Results flagged for a closer look

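In each of the 36 genes the 5 tumours at 14 months were searched for an array that lies far from the others by Dixon's test, which flags about 1 in 20 groups by chance, and 2 were found. In both the outlying array was 14-month tumour 3. Its Col4a2 level was 11.12, while the other 14-month tumours lay between 9.14 and 9.48. Its Lamb1 level was 8.81, while the others lay between 6.81 and 7.16.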

How the results depend on the processing

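With both ages combined, 17 genes passed in the reported fit. This count was 7 at an adjusted p under 0.01, 6 without both alike controls (control_liver_11M replicate 1 and control_liver_14M replicate 3), and 8 to 27 when each array was left out. At 11 months the count of 1 became 2 with only genes above the median level, 15 without the 3 tumours that stood apart, 0 to 2 without 1 array, and 0 at an adjusted p under 0.01, with only the arrays compared, with KO_tumor_14M replicates 1 and 2 averaged or without both alike controls. At 14 months the count of 11 became 19 with array weights, 17 without the 3 tumours, 3 without both alike controls, 2 at an adjusted p under 0.01 and 3 to 16 without 1 array. The difference between ages and the comparison of tumours of both ages gave 0 genes in each setting run. With both ages combined, the count over all genes changed between settings too. At 11 months and at 14 months that count is not given by setting. A changed count of matrix genes at a single age is therefore not a result about the matrix genes. At 11 months, the fit without the 3 tumours has KO_tumor_11M replicate 3 as the only tumour of its age. Its spread is assumed to be that of the other groups, so the count of that fit is not read as a result.

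The sign turned in 2 genes that did not pass. Dcn, at -0.10 with all arrays, was 0.06 without KO_tumor_11M replicate 1, in a range of -0.32 to 0.06 over the arrays left out. Vcan, at 0.25, was -1.7e-03 without KO_tumor_11M replicate 3, in a range of -1.7e-03 to 0.43. Without both alike controls, 11 of the 17 genes missed the threshold with their direction kept: Col1a1, Col1a2, Col3a1, Col5a2, Col6a3, Sparc, Lamb1, Lox, Timp1, Mmp12 and Mmp13. The filter on level removed 11 of the 36 genes from the test, among them Lox, Timp1, Mmp12 and Mmp13. The cause of these shifts was not tested, and the settings behind them left fewer arrays or genes. No paired analysis was possible because the labels pair no tumour with a control liver. Single arrays per group after such removals, low signal and the lack of tumour-free knockout liver limit all comparisons.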
